A study of Homo sapiens with 54 samples.

Results

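The IER immediate early response genes were taken as the 4 genes named IER2, IER3, IER5 and IER5L, read by name in the expression table of each library, out of 60676 annotated genes. They were followed through RNA-seq of hMSN-like cells, human neurons of the striatal medium spiny type grown from the human embryonic stem cell line H9 (WA09), so every group shares 1 cell line. The labels give 18 groups in 4 experiments. In the first pair of experiments, cells received dopamine at 1 mM or at 1 µM, either once (Acute) or for 1 h on each of 5 days (Chronic), RNA was taken 1 h or 24 h after dosing, and each dose had its own PBS control. In the third, 1 mM dopamine was given daily for 2, 3, 4 or 5 days against an ascorbic acid control (AA vehicle), and in the fourth SKF82958 (an agonist of D1-like dopamine receptors) or quinpirole (an agonist of D2-like receptors), each at 50 µM, was compared with Water. Each group had 3 libraries except 5 Day, where replicates 2 and 3 were present and replicate 1 was not analysed here, which left 53 libraries. Dopamine was given in ascorbic acid, and whether PBS controls held ascorbic acid is not given in the sources used here. Acute cultures were younger than Chronic cultures when RNA was taken, so age and repeated dosing cannot be told apart, and the same holds for dose and experiment. Acute and Chronic groups of a dose shared the same PBS libraries, whose culture age is not given in the sources used here. Age may therefore also differ between PBS and treated groups, and its part in those comparisons was not tested.

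Immediate early genes are transcribed within minutes of a stimulus without new protein synthesis, mostly through kinase cascades that act on transcription factors already present at their promoters, and in striatal neurons they are a standard readout of dopamine receptor signalling. IER2, IER5 and IER5L encode related proteins that share a conserved amino-terminal region. IER2 is a small nuclear protein induced by growth factors, IER5 is a nuclear protein that works with the phosphatase PP2A and activates heat shock factor 1 (HSF1), and IER5L is their less studied relative. IER3, also called IEX-1, carries the family name but is not related in sequence. It is a stress and growth factor response protein that affects cell survival and extends ERK signalling, and it is a target of NF-κB and p53.

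In the annotation of the files (hg38, Ensembl release 102), IER2 (ENSG00000160888) lay on chromosome 19 at 13150411 to 13154911 on the plus strand with 5 exons. IER3 (ENSG00000137331) lay on chromosome 6 at 30743199 to 30744548 on the minus strand with 3 exons. IER5 (ENSG00000162783), on chromosome 1 at 181088700 to 181092900 on the plus strand, and IER5L (ENSG00000188483), on chromosome 9 at 129175552 to 129178261 on the minus strand, each had a single exon. Genes on the opposite strand overlapped 3 members. These were AC011446.3 and AC011446.2 at IER2, IER3-AS1 and HCG20 at IER3, and AL158151.3 and AL158151.1 at IER5L. The strand setting of the counting is not given in the sources used here, so reads of a member and its opposite-strand partner may not be separable. The partners were counted low, with at most 17 exon reads in any library except for AL158151.1, which ranged from 1 to 121. Outside quinpirole replicate 1, the exon reads that matched more than 1 place were 3.50% to 32.9% for IER2, 2.04% to 16.4% for IER3, 7.36% to 27.0% for IER5L and 0% for IER5, so the counts of the first 3 can hold reads of other loci.

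The 250 bases upstream of 3 of the members were read from RefSeq (GRCh38.p14) because the genes are named for a fast response, and the sequences show which response elements these windows share and which they do not. IER3 had no entry in the promoter table used. The windows are IER2 at chr19:13150161-13150410 on the plus strand, IER5 at chr1:181088450-181088699 on the plus strand and IER5L at chr9:129178262-129178511 on the minus strand, each printed 5′ to 3′ on its own gene's strand. Capitals mark matches, on either strand, to any motif searched.
IER2 promoter: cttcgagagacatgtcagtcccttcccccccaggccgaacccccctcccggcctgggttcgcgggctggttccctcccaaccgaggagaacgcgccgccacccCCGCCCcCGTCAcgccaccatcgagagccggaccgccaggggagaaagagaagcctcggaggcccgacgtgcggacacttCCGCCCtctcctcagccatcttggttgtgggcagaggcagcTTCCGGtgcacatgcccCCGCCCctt
IER5 promoter: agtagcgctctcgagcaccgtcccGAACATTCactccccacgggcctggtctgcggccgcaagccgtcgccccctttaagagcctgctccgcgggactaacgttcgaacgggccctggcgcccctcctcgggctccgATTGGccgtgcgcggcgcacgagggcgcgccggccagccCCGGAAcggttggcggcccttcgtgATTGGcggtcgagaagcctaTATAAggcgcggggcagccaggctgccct
IER5L promoter: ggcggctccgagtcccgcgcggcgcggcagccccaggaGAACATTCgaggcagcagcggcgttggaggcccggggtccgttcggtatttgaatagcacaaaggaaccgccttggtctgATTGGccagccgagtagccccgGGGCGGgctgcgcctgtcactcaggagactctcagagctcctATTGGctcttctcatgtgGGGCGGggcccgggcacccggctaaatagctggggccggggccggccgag

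The motifs searched were the SRF box (CArG), the cAMP response element TGACGTCA and its core TGACG, the AP-1 site TGANTCA, the EGR site GCGNGGGCG, the ETS site CCGGAA, the SP1 box GGGCGG, the NF-Y box CCAAT, the letters TATAA and the heat shock pair GAANNTTC, which is an inverted pair of heat shock units. The IER2 window held 1 CRE core, 1 ETS site and 3 SP1 boxes. The IER5 window held 1 ETS site, 2 NF-Y boxes, 1 TATAA close to the start and 1 heat shock pair. The IER5L window held 2 SP1 boxes, 2 NF-Y boxes and 1 heat shock pair. The CRE core lies inside the full element, and no window held that full element, an SRF box, an AP-1 site or an EGR site. Of 35116 promoter windows of the same length, 5.78% held a heat shock pair, 32.0% an NF-Y box, 42.6% an SP1 box, 14.5% an ETS site, 21.2% a CRE core and 18.9% TATAA, while 1.16% held an SRF box, 1.65% the full element, 6.57% an AP-1 site and 8.41% an EGR site. GC content was 69.6%, 70.4% and 68.4% in IER2, IER5 and IER5L, against a median of 58% over all windows. These matches are descriptions of letters and were not tested for binding.

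**Figure D1:**
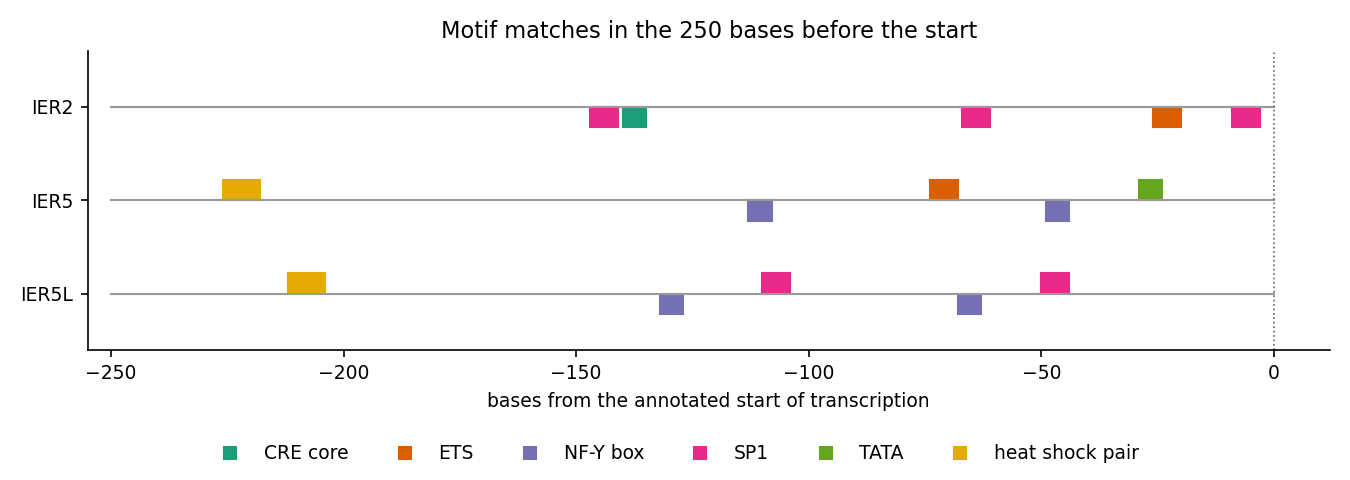
Positions of motif matches in the 250 bases upstream of IER2, IER5 and IER5L. The x axis is the distance from the RefSeq start in bases and each mark is a match on either strand. IER5 and IER5L each have 2 NF-Y boxes and 1 heat shock pair, and IER2 has 3 SP1 boxes and neither of these elements.

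Apart from quinpirole replicate 1, the 52 libraries held 5755919 to 27702963 exon reads (median 11516406), with 12.3% to 31.2% of gene reads in introns. Quinpirole replicate 1 held 137051 exon reads with 96.7% of gene reads in introns. The 1 mM Acute 24 h replicate 1 correlated less with its group than its partners did (mean r of 0.862 against 0.927 and 0.929), and replicate 2 of the 1 µM PBS, Acute 1 h and Chronic 1 h groups had mean r values of 0.929, 0.884 and 0.938, against a median of 0.989 over the 52 libraries. Results that rest on these libraries are given with and without them, except the counts of the gene lists, which are from fits with all libraries. The neuronal genes MAP2 and TUBB3 were high in vehicle cultures (medians of 477 and 872 TPM over 12 libraries), the striatal markers BCL11B and PPP1R1B lower (56.1 and 22.7 TPM) and DRD1, the D1 receptor, lowest (1.61 TPM). The neuronal gene RBFOX3 was low beside MAP2 and TUBB3, at 12.9 TPM. The progenitor genes SOX2 (559 TPM) and TOP2A (255 TPM) were also high, so the cultures were mixed. Medians ranged from 1.86 TPM (ALDH1L1) to 87.3 TPM (SLC1A3) for astrocyte markers and from 5.85 TPM (DCN) to 55.4 TPM (COL3A1) for mesenchymal markers. The endothelial gene CDH5 and the microglial gene P2RY12 had medians of 0.0465 and 0 TPM, but the endothelial marker CLDN5 stood at 8.83 TPM. In such bulk samples a fall in a transcript can come from fewer cells that make it or from less RNA per cell, and these cannot be told apart.

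All 4 members were expressed in the vehicle cultures, which were given PBS, ascorbic acid or water. In TPM, which is per length and so can be compared between genes, IER5 was highest in the 12 vehicle libraries with a median of 124 TPM (70.5 to 168). IER3 followed with 82.2 TPM (57.7 to 188), then IER5L with 68.5 TPM (20.0 to 98.8) and IER2 with 63.3 TPM (15.5 to 112). Each of these ranges overlapped the next. By group mean, IER2 and IER3 were highest among the vehicles in Water, at 105, 107 and 112 TPM and at 168, 188 and 178 TPM. The order of the pooled medians did not hold there, since the Water means of IER3 (178 TPM) and IER2 (108 TPM) were above that of IER5 (93.9 TPM). The highest group mean of IER2, 238 TPM ± 15.2 (SD, n = 3), and of IER3, 375 TPM ± 20.4 (SD, n = 3), was 1 mM Acute 1 h, and the lowest was 1 µM Acute 24 h for both, at 38.9 TPM ± 12.2 and 24.9 TPM ± 3.14 (SD, n = 3). The highest group of IER3 overlapped the next, SKF82958 (mean of 370 TPM), and the lowest of IER2 overlapped AA vehicle (mean of 42.6 TPM). The highest of IER2 and the lowest of IER3 did not overlap the group next to them.

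A single exposure to 1 mM dopamine raised 3 of the 4 genes after 1 h. IER2 stood at 65.4, 75.5 and 63.3 TPM in PBS and at 248, 221 and 247 TPM in Acute 1 h. IER3 stood at 176, 121 and 83.9 TPM in PBS and at 373, 355 and 396 TPM after dopamine. For both genes every treated library lay above every control library, and the controls of IER3 were the more spread. IER2 rose 3.67-fold (1.87 ± 0.32 as log2 fold change ± SE, adjusted p = 0.00267) and IER3 rose 3.09-fold (1.63 ± 0.30, adjusted p = 0.00338) in edgeR's quasi-likelihood test on exon reads.

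IER5 stood at 132, 126 and 130.1 TPM in PBS and at 227, 236 and 227 TPM in Acute 1 h, groups that were tight and did not overlap. Its rise was 1.86-fold (log2 fold change 0.89 ± 0.17, adjusted p = 0.00459). IER5L, at 98.8, 71.1 and 73.2 TPM in PBS and 87.3, 100.3 and 95.2 TPM in Acute 1 h, overlapped its controls and was not called (log2 fold change of 0.28, 95% interval −0.42 to 0.98, adjusted p = 0.597). So 3 of 4 members were called higher, where 8.04% of the 17804 genes tested were. Each of these 3 calls held without 1 mM Acute 24 h replicate 1 (19.9% of genes called higher) and when any of the 6 libraries was left out (highest adjusted p of 0.0153 for IER2, 0.0213 for IER3 and 0.0272 for IER5). Introns took 12.3% to 13.2% of gene reads in Acute 1 h and 19.5% to 21.8% in PBS, and the summed level of the 10 striatal neuron markers was 119 to 123 TPM against 132 to 151 TPM. The part of these differences in the calls was not tested.

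The reads of IER2 could be split between exons and introns. As CPM, which are reads scaled to the exon reads of the library, its exon reads stood at 46.2 to 55.3 in PBS and at 164 to 184 in 1 mM Acute 1 h. Intron reads of the gene stood at 7.40 to 9.24 CPM in PBS and at 5.76 to 7.18 CPM in Acute 1 h. On this scale they did not rise with the exon reads. Introns thus held 13.8% to 14.3% of the reads of IER2 in PBS and 3.39% to 3.75% in Acute 1 h, without overlap. Over all genes the intron share was also lower, at 12.3% to 13.2% of gene reads in Acute 1 h and 19.5% to 21.8% in PBS. The part of that library-wide shift in the intron reads of IER2 was not tested. Chronic 1 h libraries had exon reads of IER2 at 130.1 to 153 CPM and intron reads at 5.55 to 9.09 CPM. For IER3, introns held at most 0.656% of its reads outside quinpirole replicate 1.

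**Figure D2:**
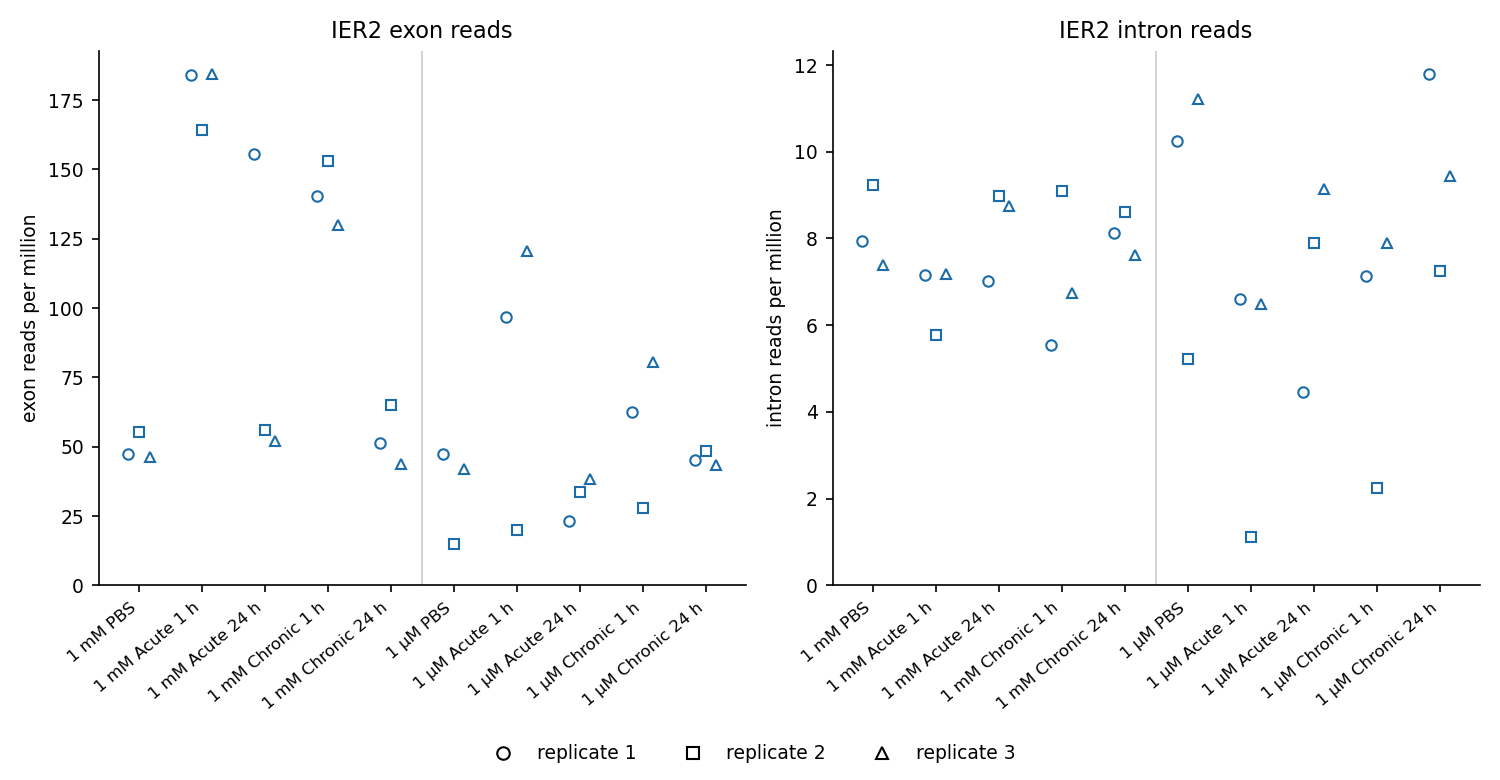
Exon and intron reads of IER2, each as CPM of the exon reads of the library, in the 1 mM and 1 µM experiments. Each point is a library. At 1 mM, exon reads in Acute 1 h (164 to 184) lie above all PBS libraries (46.2 to 55.3), while intron reads (5.76 to 7.18) lie below PBS (7.40 to 9.24). The intron share of all gene reads was also lower in these Acute 1 h libraries (12.3% to 13.2%) than in PBS (19.5% to 21.8%).

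At 24 h after the single 1 mM dose the outcome turned on 1 library. Replicate 1 stood at 249 TPM for IER2, 427 TPM for IER3, 307 TPM for IER5 and 338 TPM for IER5L. Replicates 2 and 3 stood at 77.7 and 72.3 TPM for IER2, 198 and 148 TPM for IER3, 158 and 153 TPM for IER5 and 93.7 and 99.1 TPM for IER5L. Replicate 1 was thus the highest of the group for all 4 members, and replicates 2 and 3 were close to each other. With all 3 libraries no member was called (log2 fold changes of 0.79 for IER2, 0.86 for IER3, 0.52 for IER5 and 0.95 for IER5L, adjusted p from 0.0539 to 0.0974), where 15.5% of genes were called in either direction. Without replicate 1 the log2 fold changes were 0.09, 0.40, 0.21 and 0.20 in the same order and none was called (lowest adjusted p of 0.102, 22.3% of genes called in either direction). Without replicate 2 all 4 members were called higher (adjusted p from 0.0234 to 0.0494, 12.5% of genes called higher), as they were without replicate 3 (0.0138 to 0.0220, 15.7% of genes called higher).

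The same library was high in other stress and activity genes. EGR1, an immediate early transcription factor, stood at 696 TPM in replicate 1 and at 27.8 and 25.8 TPM in replicates 2 and 3. HSPA1B, a heat shock protein, stood at 1267 TPM against 195 and 230.3 TPM, and ATF3, a stress response factor, at 113 TPM against 27.3 and 25.6 TPM. Replicate 1 was over 2-fold above the mean of its partners for 26 of 32 immediate early genes, 8 of 8 p53 targets, 5 of 11 HSF1 targets and 3 of 4 members with at least 5 TPM, against 14.7% of all 12947 such genes. It was over 2-fold below them for 3 of 4 mesenchymal markers, 3 of 6 neural progenitor markers, 2 of 5 neuron markers and 1 of 3 astrocyte markers at that level, and for 916 of all such genes. Of the progenitor markers 1 was over 2-fold higher. The part of these markers in the levels of the members was not tested. Its part in the other 1 mM comparisons, which share the estimate of spread, is given beside each of them.

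In the 1 mM dopamine experiment, IER2 and IER5 were again called higher 1 h after the fifth daily dose. IER3 and IER5L were not. The 5 Day group of the time course had the same dose, number of doses and hour of sampling, but another vehicle. There IER3 (log2 fold change of 0.93), IER5L (0.85) and IER2 (0.96) were called higher and IER5 (0.16) was not. These experiments were not tested against each other. IER2 stood at 191, 209 and 178 TPM in Chronic 1 h, all above the PBS libraries, which are the same as for the Acute comparison. IER5 stood at 233, 259 and 214 TPM, also above PBS. IER2 rose 2.75-fold (log2 fold change 1.46 ± 0.32, adjusted p = 0.0336) and IER5 rose 1.76-fold (0.82 ± 0.17, adjusted p = 0.0267), and 2 of 4 members were called higher where 1.27% of genes were. Both calls were lost when any of the 6 libraries was left out (adjusted p from 0.0835 to 0.152 for IER2 and from 0.0673 to 0.134 for IER5), and that of IER5 was also lost with total gene reads (adjusted p = 0.0515). Without 1 mM Acute 24 h replicate 1, which is in neither group, the adjusted p was 1.19e-06 for IER2 and 1.08e-05 for IER5, with 9.25% of genes called higher.

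IER3 stood at 184, 210.4 and 154 TPM in 1 mM Chronic 1 h, which overlapped PBS (log2 fold change of 0.49, adjusted p = 0.448), and IER5L at 82.6, 95.2 and 80.5 TPM (0.05, adjusted p = 0.967). Compared directly, IER3 was 2.21-fold lower in Chronic 1 h than in Acute 1 h (log2 fold change −1.14 ± 0.29, adjusted p = 0.0232), and all 3 Chronic libraries lay below all 3 Acute libraries. It was the single member called lower, where 5.91% of genes were. Leaving out any of these 6 libraries ended the call (adjusted p from 0.0520 to 0.0952). IER2 was also lower in every Chronic library than in any Acute library but was not called (−0.42, adjusted p = 0.426), and IER5 differed by −0.08 with a 95% interval of −0.44 to 0.29. Without 1 mM Acute 24 h replicate 1, the adjusted p was 0.000283 for IER3 and 0.0116 for IER2 (log2 fold change of −0.40), with 16.6% of genes called lower. The summed level of the 5 astrocyte markers was 194 to 206 TPM in Chronic 1 h, 106 to 111 TPM in Acute 1 h and 115 to 151 TPM in PBS, and its part in these results was not tested.

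At 24 h after the fifth 1 mM dose, IER2 was at 70.6, 89.0 and 59.9 TPM and IER5 at 136, 129 and 168 TPM, both overlapping PBS. IER3 stood at 77.6, 73.1 and 89.6 TPM and IER5L at 57.4, 50.3 and 57.9 TPM. The IER5L libraries all lay below PBS, and IER3 overlapped PBS at its upper end. None of the 4 was called (IER3 log2 fold change of −0.69, adjusted p = 0.409, and IER5L −0.58, adjusted p = 0.585), where 0.663% of genes were called in either direction. Without 1 mM Acute 24 h replicate 1 both were called lower (adjusted p = 0.0439 for IER3 and 0.00530 for IER5L), with 5.42% of genes called lower.

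Between 1 h and 24 h, no member was called in the 1 mM experiment with all libraries. After the single dose the log2 differences were −1.09 for IER2, −0.77 for IER3, −0.37 for IER5 and 0.66 for IER5L (lowest adjusted p of 0.0653, 3.49% of genes called). Without Acute 24 h replicate 1, IER2 fell by 1.77 on the log2 scale (adjusted p = 5.16e-07), IER3 by 1.21 (adjusted p = 0.00216) and IER5 by 0.66 (adjusted p = 0.000374), and IER5L was at −0.07 (adjusted p = 0.774), with 4.08% of genes called lower. Without Acute 24 h replicate 2, IER5L was called higher at 24 h than at 1 h (0.94, adjusted p = 0.0482). After the fifth dose all 4 members had 24 h libraries below all 1 h libraries, with log2 differences of −1.38 for IER2, −1.18 for IER3, −0.69 for IER5 and −0.63 for IER5L. None passed with all libraries (lowest adjusted p of 0.115, 0.359% of genes called), and all 4 passed without Acute 24 h replicate 1, with adjusted p from 2.43e-06 to 0.00269 and 3.34% of genes called lower.

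**Figure D3:**
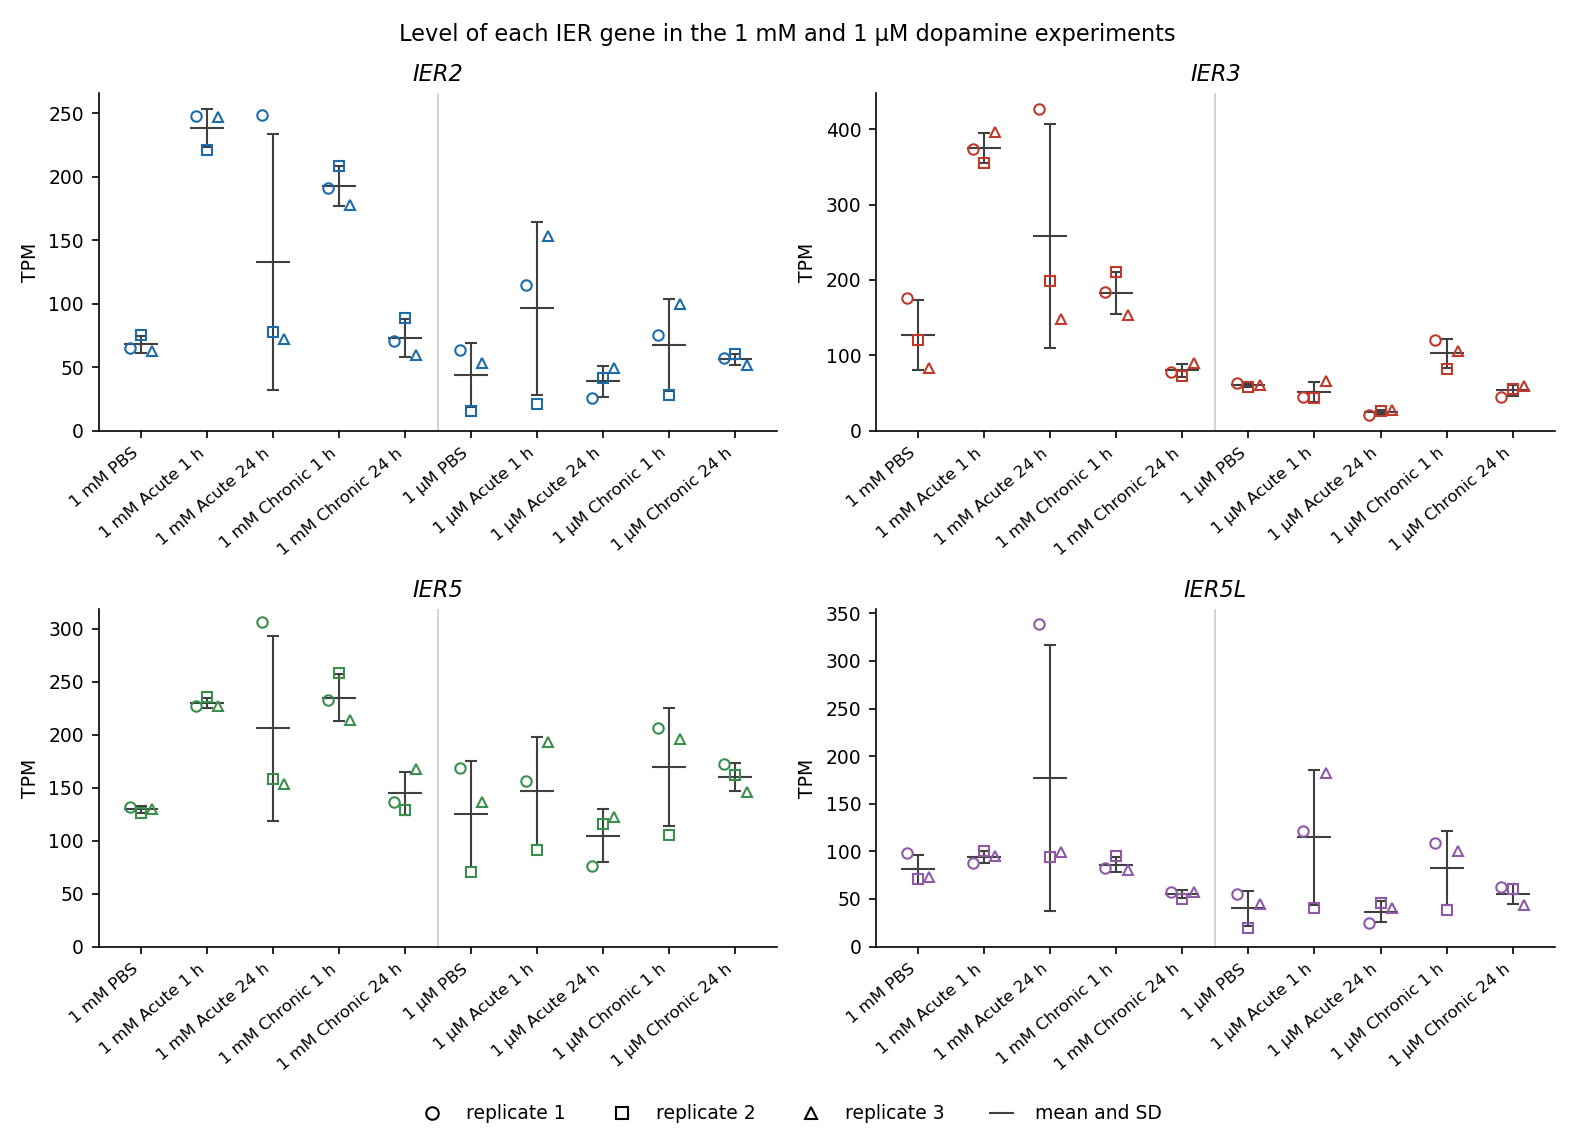
Levels in TPM of the 4 IER genes in the 1 mM and 1 µM dopamine experiments. Each point is a library, horizontal bars are group means and whiskers are SD (n = 3). In 1 mM Acute 24 h, replicate 1 (249 TPM for IER2) stands apart from replicates 2 and 3 (77.7 and 72.3 TPM), and in the 1 µM experiment replicate 2 is low for IER2 in PBS, Acute 1 h and Chronic 1 h.

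With 1 µM dopamine, IER5L was called higher 1 h after the single dose. IER5L stood at 55.3, 20.0 and 45.0 TPM in the 1 µM PBS libraries and at 121, 41.0 and 182 TPM in Acute 1 h. Replicate 2 was the lowest of both groups, and the groups overlapped because of it. IER5L rose 2.87-fold (log2 fold change 1.52 ± 0.38, adjusted p = 0.0316), the single member called higher, where 3.25% of 16541 genes were. The call was lost without PBS replicate 1, 2 or 3 or without Acute 1 h replicate 1 or 3 (highest adjusted p of 0.119), and it held without Acute 1 h replicate 2 (adjusted p = 0.00322). It was also lost with total gene reads (adjusted p = 0.103) and with only the groups compared in the fit (adjusted p = 0.249).

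IER2 stood at 63.3, 15.5 and 53.5 TPM in 1 µM PBS and at 115, 21.2 and 154 TPM in Acute 1 h, again with replicate 2 lowest in both groups (log2 fold change of 1.14, 95% interval 0.08 to 2.21, adjusted p = 0.211). ACTB, the gene of cytoplasmic actin, was at 2141 and 1951 TPM in these replicates 2 and at 1995 TPM in that of Chronic 1 h, against 3106 to 3854 TPM in the other libraries of the 3 groups, and the part of this difference was not tested. A fit without replicate 2 of PBS, Acute 1 h and Chronic 1 h together, chosen after seeing the data, gave a 2.38-fold rise of IER2 (adjusted p = 0.000416) and a 3.12-fold rise of IER5L (adjusted p = 0.000123), with 5.57% of genes called higher. IER3 (44.3, 43.8 and 66.3 TPM against 63.9, 57.7 and 60.9 TPM in PBS) and IER5 (156, 91.5 and 193 TPM against 168, 70.5 and 137 TPM) overlapped their controls and were called in neither fit. Their log2 fold changes were −0.25 for IER3 (adjusted p = 0.493) and 0.27 for IER5 (adjusted p = 0.532).

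At 24 h after a single 1 µM dose, IER3 fell below its controls. It stood at 21.4, 26.0 and 27.4 TPM, so that all 3 libraries were below the lowest PBS library. The fall was 2.56-fold (log2 fold change −1.35 ± 0.18, adjusted p = 0.00139), and the call held when each of the 6 libraries was left out (highest adjusted p of 0.0129). It was the single member called lower, where 1.91% of genes were. IER2 at 25.6, 41.5 and 49.6 TPM, IER5 at 76.2, 116 and 122 TPM and IER5L at 24.4, 45.5 and 40.7 TPM overlapped PBS and had adjusted p of 0.583 or more. Without the replicate 2 libraries IER5 was also called lower (log2 fold change of −0.45, adjusted p = 0.0244), with 5.88% of genes called lower.

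After 5 daily doses of 1 µM dopamine, IER3 was the single member called higher at 1 h, and differences between members were not tested. It stood at 119.9, 82.3 and 106 TPM in Chronic 1 h, above all PBS libraries. The rise was 1.71-fold (log2 fold change 0.78 ± 0.18, adjusted p = 0.0320), against 1.75% of genes called higher, and the call held in 1 of 6 fits with a library left out, the fit without PBS replicate 2 (adjusted p = 0.0268). It was lost with no filter on low counts (adjusted p = 0.0662) and with only the groups compared (adjusted p = 0.132). IER3 was 2.03-fold higher in 1 µM Chronic 1 h than in Acute 1 h (log2 fold change 1.02 ± 0.18, adjusted p = 0.0120, 0.556% of genes called higher), which is lost without Chronic 1 h replicate 1 (adjusted p = 0.0629) and held without the replicate 2 libraries (1.05, adjusted p = 0.00678, 1.95% of genes called higher). With only the groups compared this call was lost too (adjusted p = 0.346). At 1 mM the same comparison had IER3 lower after repeated dosing, and the difference between these 2 comparisons was not tested.

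The other members in 1 µM Chronic 1 h had replicate 2 as the lowest library. IER2 was at 75.4, 28.1 and 99.6 TPM (log2 fold change of 0.69, adjusted p = 0.591), IER5 at 207, 105 and 196 TPM (0.50, adjusted p = 0.267) and IER5L at 109, 38.2 and 101 TPM (1.10, adjusted p = 0.175). All 4 members were called higher without the replicate 2 libraries (log2 fold changes of 0.65 for IER2, 0.93 for IER3, 0.47 for IER5 and 1.13 for IER5L, adjusted p from 0.00418 to 0.0361), with 4.05% of genes called higher.

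At 24 h after the fifth 1 µM dose no member was called (lowest adjusted p of 0.867), and no gene of 16541 was called by edgeR, with 608 at an unadjusted p under 0.05 and 1 called by DESeq2. IER3 stood at 45.2, 55.7 and 59.7 TPM, IER2 at 57.1, 60.2 and 51.8 TPM, IER5 at 172, 162 and 146 TPM and IER5L at 62.3, 60.2 and 43.3 TPM. IER3 was 2.01-fold lower here than in Chronic 1 h (log2 difference of −1.01, adjusted p = 0.00907, 1.55% of genes called lower), which is lost without Chronic 24 h replicate 1 (adjusted p = 0.0571). It was also 2.15-fold lower in Acute 24 h than in Acute 1 h (−1.11, adjusted p = 0.0108, 0.447% of genes called lower), a call that is lost without Acute 24 h replicate 1, 2 or 3 (adjusted p from 0.0635 to 0.0735), with total gene reads (0.0811) and with only the groups compared (0.221). Without the replicate 2 libraries, IER2, IER3 and IER5L were called lower in Chronic 24 h than in Chronic 1 h (log2 differences of −0.58, −1.03 and −0.87, 4.87% of genes called lower). In the same fit all 4 members were called lower in Acute 24 h than in Acute 1 h (−1.74 for IER2, −1.10 for IER3, −0.69 for IER5 and −1.99 for IER5L, 2.75% of genes called lower).

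The change after a single dose was then compared between the doses in 1 fit of both experiments, as the difference of the 1 mM and 1 µM log2 fold changes at 1 h. For IER3 the change was larger at 1 mM by 1.89 on the log2 scale (SE 0.35, 95% interval 1.18 to 2.61, adjusted p = 0.00317), where 1.09% of 18390 genes were called in that direction. The call held when each of the 12 libraries was left out, and without the 1 µM replicate 2 libraries (1.78, adjusted p = 0.0179, 1.53% of genes called higher). Without 1 mM Acute 24 h replicate 1 it also held (adjusted p = 0.000153, 2.62% of genes called higher). IER5L differed in the other direction (−1.22, 95% interval −2.30 to −0.14, adjusted p = 0.259), and IER2 (0.75) and IER5 (0.65) were not called either (adjusted p = 0.634 and 0.272). For the Chronic 1 h change no member was called between doses (IER3 −0.31, IER2 0.75, IER5 0.30 and IER5L −1.07, lowest adjusted p of 0.633, 0.0870% of genes called). The same was found without 1 mM Acute 24 h replicate 1 or without the 1 µM replicate 2 libraries, with 0.709% and 0.223% of genes called.

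In the time course, where cells received 1 mM dopamine daily and the cultures were of 1 age, IER2 and IER5L were higher than in AA vehicle on every day sampled. IER2 stood at 41.2, 45.1 and 41.6 TPM in AA vehicle, at 83.4, 98.3 and 67.6 TPM on 2 Day, 76.2, 88.6 and 91.5 TPM on 3 Day, 90.5, 88.8 and 96.8 TPM on 4 Day and 52.5 and 103 TPM on 5 Day. All dosed libraries lay above the vehicle. The rise of IER2 was 2.15-fold on 2 Day (log2 fold change of 1.10, adjusted p = 0.000699), 2.15-fold on 3 Day (adjusted p = 0.000415), 2.20-fold on 4 Day (adjusted p = 0.000490) and 1.94-fold on 5 Day (adjusted p = 0.00843). The calls on 2, 3 and 4 Day held whichever library was left out, and that on 5 Day was lost without 5 Day replicate 3 (adjusted p = 0.0565) and with total gene reads (adjusted p = 0.0803).

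IER5L stood at 60.8, 55.8 and 66.0 TPM in AA vehicle, 92.0, 109 and 97.2 TPM on 2 Day, 85.7, 97.7 and 107 TPM on 3 Day, 98.4, 121 and 123 TPM on 4 Day and 76.9 and 127 TPM on 5 Day. No dosed library of IER5L reached down to the vehicle. Its rises were 1.80-fold (adjusted p = 0.00216), 1.70-fold (0.00258), 1.91-fold (0.000827) and 1.80-fold (0.00843) from 2 Day to 5 Day. Each of these calls held with any library left out, and that on 5 Day was lost with total gene reads (adjusted p = 0.0573).

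IER3 had its highest level on 3 Day. It stood at 60.2, 73.7 and 80.5 TPM in AA vehicle, 149, 164 and 101 TPM on 2 Day, 210.5, 316 and 322 TPM on 3 Day, 146, 135 and 140.3 TPM on 4 Day and 118 and 129.9 TPM on 5 Day. All dosed libraries were above the vehicle, and the 3 Day libraries were above those of every other day. IER3 rose 4.24-fold on 3 Day (log2 fold change 2.08 ± 0.19, adjusted p = 1.97e-05), against 2.12-fold on 2 Day (adjusted p = 0.00712), 2.00-fold on 4 Day (adjusted p = 0.0104) and 1.90-fold on 5 Day (adjusted p = 0.0415). The 3 Day call held with any library left out. The 2 Day call was lost without 2 Day replicate 2 (adjusted p = 0.0524), the 4 Day call without AA vehicle replicate 1 (adjusted p = 0.0611), and the 5 Day call held in 1 of 5 such fits (highest adjusted p of 0.180) and was lost with total gene reads (0.0917) and with only the groups compared (0.0520). IER3 was 2.23-fold lower on 5 Day than on 3 Day (log2 difference of −1.16, adjusted p = 0.0296, 0.626% of genes called lower), which was lost without 3 Day replicate 2 or 3 or 5 Day replicate 3 (highest adjusted p of 0.142), with total gene reads (0.0540) and with only the groups compared (0.179).

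IER5 had the smallest fold changes of the 4 members in the time course. It stood at 124, 124 and 124 TPM in AA vehicle, 137, 137 and 156 TPM on 2 Day, 142, 129.9 and 126 TPM on 3 Day, 141, 158 and 149.8 TPM on 4 Day and 103 and 154 TPM on 5 Day. The libraries of 2, 3 and 4 Day were above the vehicle, and those of 5 Day lay on either side of it. IER5 was called on 2 Day (1.27-fold, adjusted p = 0.0211) and 4 Day (1.23-fold, adjusted p = 0.0357) but not on 3 Day (1.15-fold, adjusted p = 0.134) or 5 Day (1.12-fold, adjusted p = 0.382). The calls on 2 Day and 4 Day each held in 1 of 6 fits with a library left out (highest adjusted p of 0.105 and 0.154), and both were lost with total gene reads (adjusted p = 0.0556 and 0.132). The members called higher were thus 4 of 4 on 2 Day, 3 of 4 on 3 Day, 4 of 4 on 4 Day and 3 of 4 on 5 Day, where 1.89%, 4.77%, 2.58% and 1.23% of 16768 genes were. The 4 comparisons share the AA vehicle libraries. The summed level of the 5 mesenchymal markers was 167 to 223 TPM in AA vehicle and 214 to 443 TPM in the dosed groups, and that of the 10 striatal neuron markers was 136 to 145 TPM and 86.5 to 134 TPM. The part of these in the results was not tested.

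**Figure D4:**
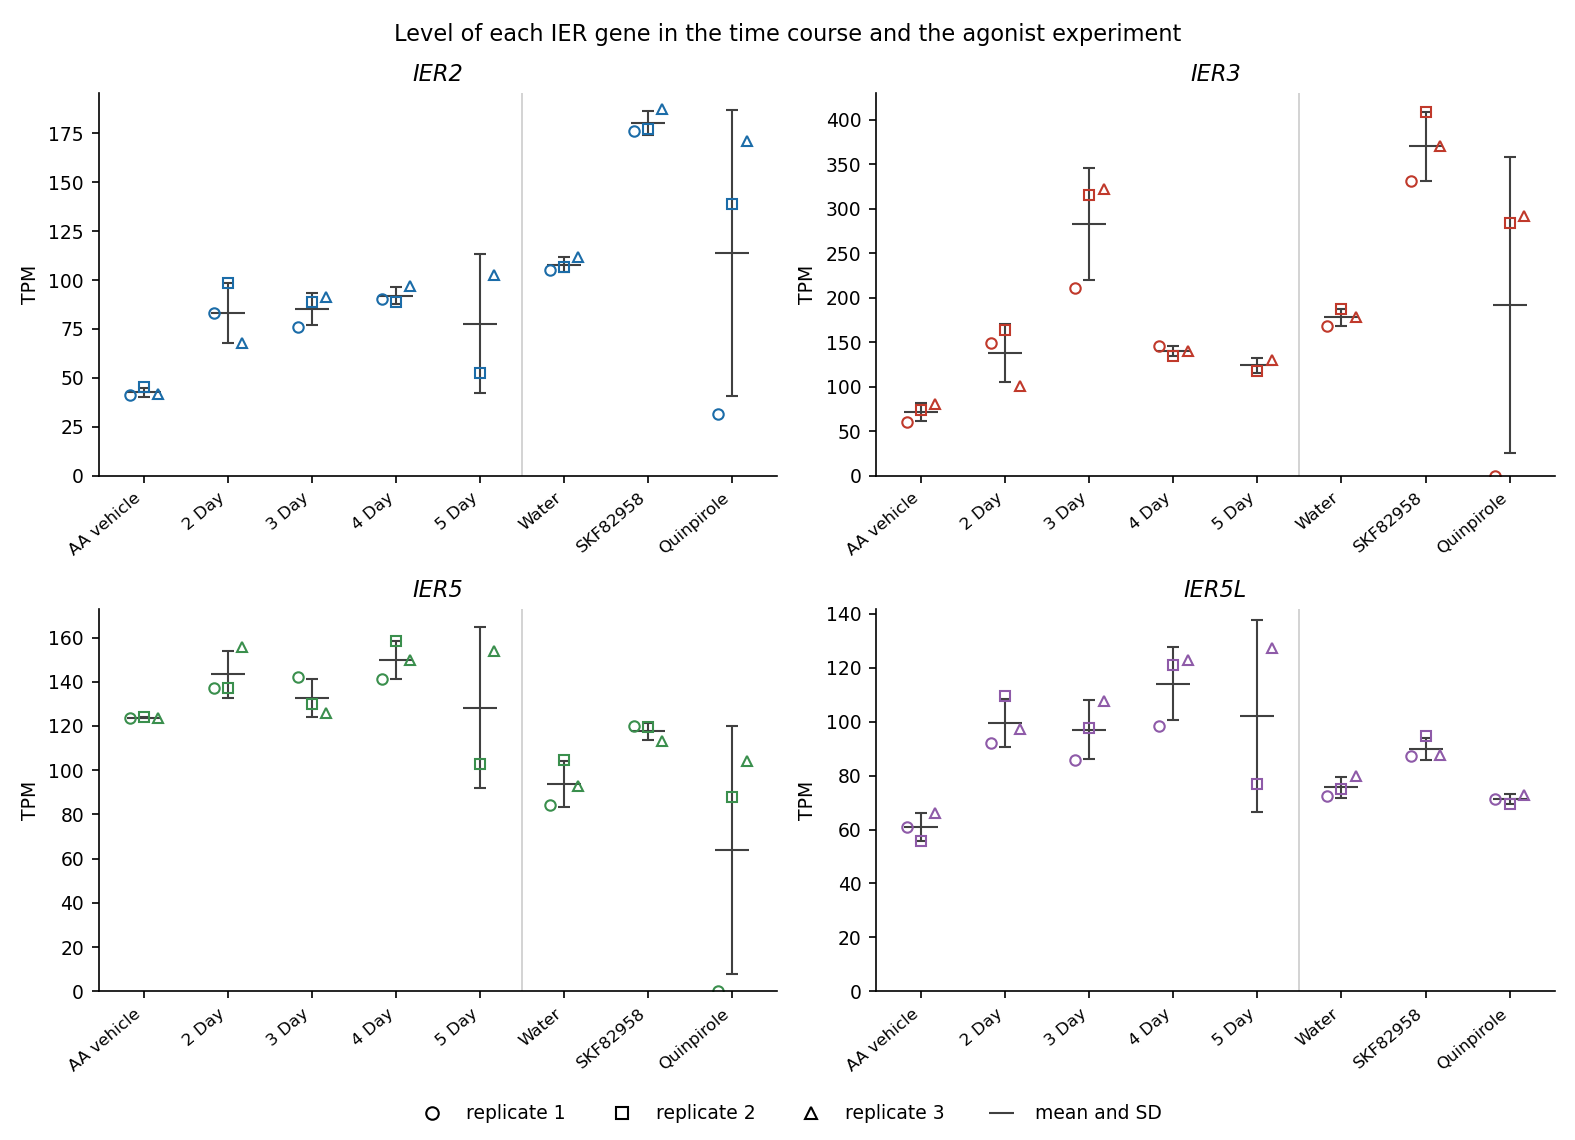
Levels in TPM of the 4 IER genes in the daily dosing time course and in the agonist experiment. Each point is a library, horizontal bars are group means and whiskers are SD. IER3 is highest on 3 Day (210.5 to 322 TPM), and the SKF82958 libraries lie above Water for all 4 genes.

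With SKF82958, IER2 stood at 176, 177 and 188 TPM against 105, 107 and 112 TPM in Water, and IER3 at 331, 409 and 371 TPM against 168, 188 and 178 TPM. Quinpirole replicates 2 and 3 stood at 139 and 171 TPM for IER2 and at 284 and 291 TPM for IER3. All of these were above Water. Quinpirole replicate 1, the library of few exon reads, counted 3 reads of IER2 and none of IER3, which gives 31.4 and 0 TPM. With it in the fit no member was called in any agonist comparison (adjusted p of 0.989 or more), and 0.0124%, 0% and 0% of 16132 genes were called for SKF82958 against Water, quinpirole against Water and SKF82958 against quinpirole. By edgeR, 185, 350 and 242 genes were at an unadjusted p under 0.05, and DESeq2 called 6, 110 and 53.

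Without quinpirole replicate 1, SKF82958 raised IER2 by 1.58-fold (log2 fold change 0.66 ± 0.06, adjusted p = 1.50e-05) and IER3 by 1.97-fold (0.98 ± 0.09, adjusted p = 3.63e-05), 2 of 4 members where 0.612% of genes were called higher. Quinpirole raised IER2 by 1.48-fold (0.57 ± 0.06, adjusted p = 0.000357) and IER3 by 1.68-fold (0.75 ± 0.10, adjusted p = 0.00309), with 0.184% of genes called higher. These folds are against Water, in which the immediate early gene FOS stood at 204 to 280 TPM, against 12.6 to 19.1 TPM in 1 mM PBS. The agonist and dopamine folds thus start from different vehicle levels. Removing that library from the fit of SKF82958 against Water, which it enters only through the shared estimate of spread, was chosen after seeing the data. IER5 stood at 119.8, 119.7 and 113 TPM with SKF82958, 84.1, 105 and 93.0 TPM in Water and 87.7 and 104 TPM with quinpirole. IER5L stood at 87.2, 94.7 and 87.8 TPM with SKF82958, 72.3, 74.9 and 79.9 TPM in Water and 69.3 and 72.9 TPM with quinpirole. IER5 and IER5L with SKF82958 were above every Water library but were not called (adjusted p = 0.308 and 0.534).

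At the shared dose of 50 µM, no member was called between SKF82958 and quinpirole without that library (adjusted p = 0.998 for each, 1 pair of compounds). The log2 differences were 0.10 for IER2 (95% interval −0.04 to 0.23), 0.23 for IER3 (0.01 to 0.45), 0.17 for IER5 (−0.02 to 0.35) and 0.20 for IER5L (0.01 to 0.40), and edgeR called 0 of 16343 genes with 748 at an unadjusted p under 0.05. With quinpirole represented by 2 libraries, these intervals are what bounds the difference.

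**Figure D5:**
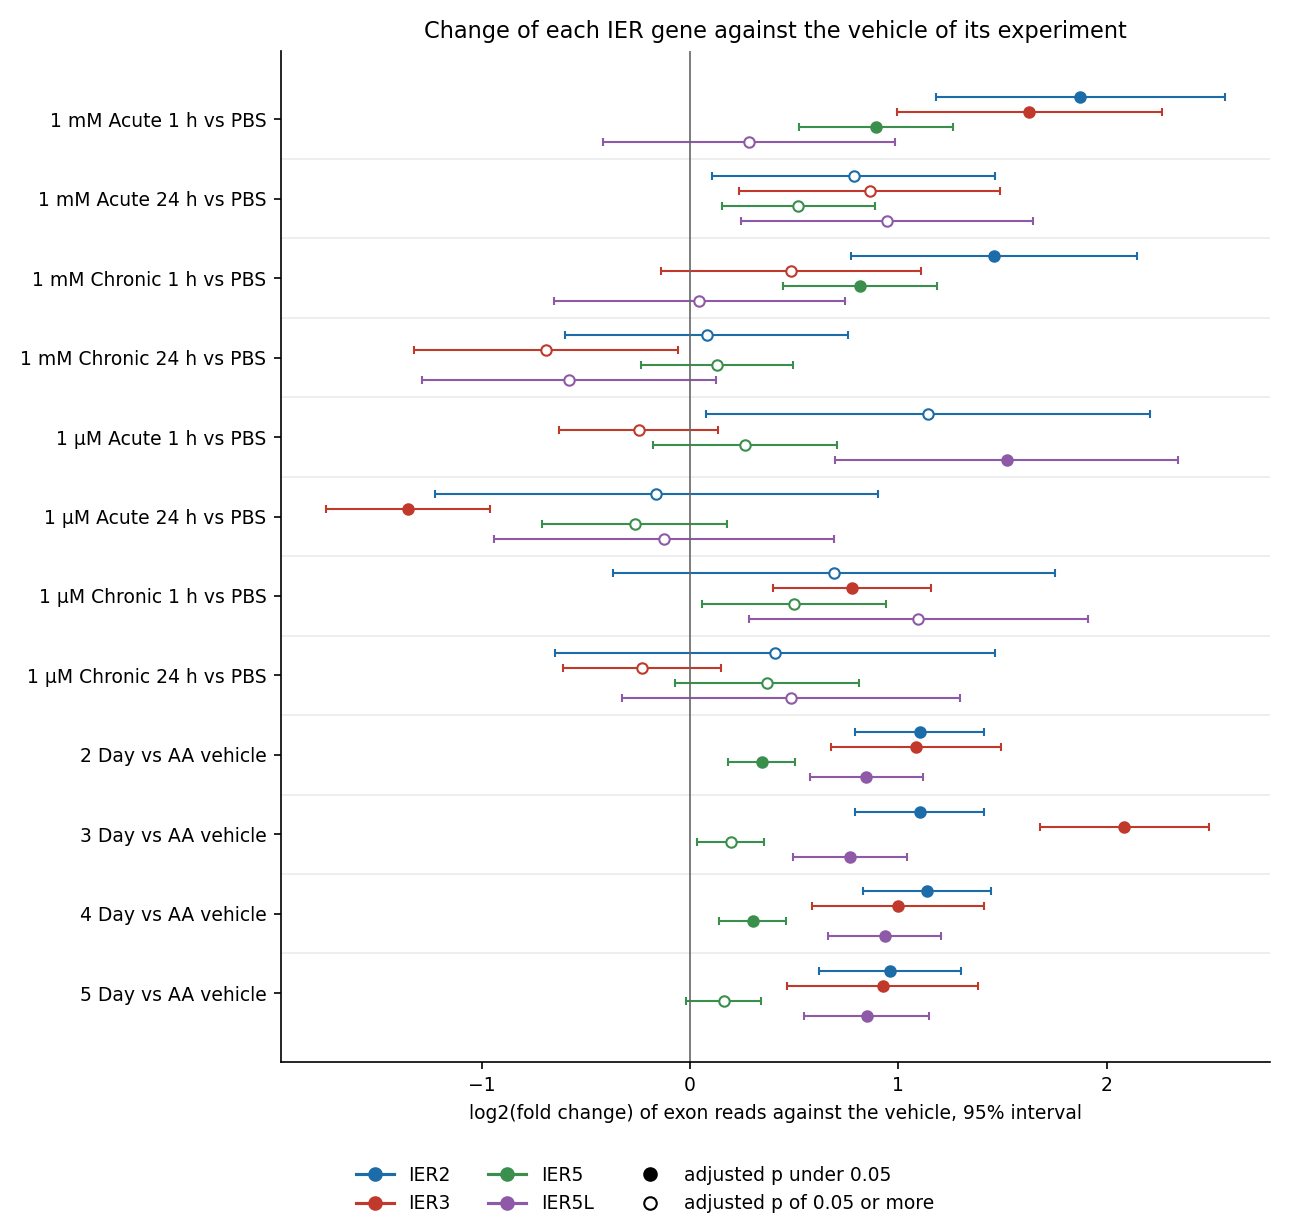
Log2 fold changes of the 4 IER genes against the vehicle of the same experiment in the dopamine experiments and the time course, from edgeR with all libraries. Points are estimates, bars are 95% intervals and filled points have an adjusted p under 0.05. IER2 and IER3 reach 1.87 and 1.63 in 1 mM Acute 1 h, and IER3 is at 2.08 on 3 Day and −1.35 in 1 µM Acute 24 h.

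The members were set beside 40 other immediate early genes, among them the FOS, JUN, EGR and NR4A transcription factors and the DUSP phosphatases. In 1 mM Acute 1 h, 28 of the 40 were called higher and none lower, where 8.04% and 7.94% of all genes were. Their median log2 fold change was 1.49 against 0.01 over all genes. The largest were FOSB (6.77), EGR2 (6.62), EGR4 (6.15) and EGR3 (6.01), all transcription factors, so the rises of IER2, IER3 and IER5 lay well below these leading genes. Against the median of the list, IER2 (1.87) and IER3 (1.63) lay above it and IER5 (0.89) below. In 1 mM Chronic 1 h, 19 were called higher and 1 lower (median of 0.92), where 1.27% and 0.814% of genes were. Against Acute 1 h, 10 were called lower, where 5.91% of genes were. In 1 µM Acute 1 h, 18 were called higher and 2 lower (median of 1.05), where 3.25% and 2.52% of genes were. In 1 µM Chronic 1 h the counts were 15 and 2 (median of 0.85), where 1.75% and 0.834% of genes were. In 1 µM Acute 24 h, the group in which IER3 fell, 6 of the 40 were called lower and none higher. Of all genes, 1.91% were called lower and 1.40% higher there.

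In the time course, 32, 31, 32 and 25 of the 40 immediate early genes were called higher from 2 Day to 5 Day, with medians of 1.00, 1.32, 1.16 and 0.92. Of all genes, 1.89%, 4.77%, 2.58% and 1.23% were called higher on these days. On 3 Day the leading genes were EGR2 (log2 fold change of 4.65), CCN1 (3.34), EGR1 (3.32) and CCN2 (3.14). CCN1 and CCN2 encode matrix-associated growth regulators. They were also among the genes whose 1 mM Acute 1 h change exceeded that at 1 µM, by 3.42 and 3.76 on the log2 scale, as was seen for IER3.

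Further lists held genes of the pathways that the IER proteins take part in. Their counts are to be read beside the shares of all genes called. These were 8.04% higher and 7.94% lower in 1 mM Acute 1 h, and 3.25% higher and 2.52% lower in 1 µM Acute 1 h. On 3 Day, 4.77% of genes were called higher. The counts of these lists and of the immediate early genes are from fits with all libraries. They were not taken without the libraries that stand apart. Without 1 mM Acute 24 h replicate 1, 19.9% of genes were called higher and 19.9% lower in 1 mM Acute 1 h. Without the 1 µM replicate 2 libraries, 5.57% were called higher and 5.70% lower in 1 µM Acute 1 h. In 1 mM Acute 1 h, edgeR called 0 of 11 HSF1 and heat shock targets (median log2 fold change of 0.10, 1 at an unadjusted p under 0.05) and 0 of 12 genes of the ERK cascade and its feedback (0.06, 3 at an unadjusted p under 0.05). Of 13 PP2A subunits 1, the regulatory subunit PPP2R5B, was called lower (−0.39, adjusted p = 0.0439), a count near the share over all genes. Of 8 NF-κB feedback targets 1 was called higher, NFKBIZ (1.63, adjusted p = 0.00876), a member of the IκB family. Of 8 p53 targets 2 were called higher, the antiproliferative gene BTG2 (1.59) and the stress gene GADD45A (1.30). BTG2 is also on the immediate early list. In 1 µM Acute 1 h, the HSF1 list had a median of −0.48 against 0.02 over all genes, with 6 of 11 at an unadjusted p under 0.05 and 1 called lower, the heat shock gene HSPA1B (−1.04, adjusted p = 0.0132). Of the p53 targets, BTG2 was called higher (1.28) and BBC3 (−1.54) and TP53INP1 (−0.50) lower there. Of 7 NF-κB targets tested 1 was called higher, NFKBIA (0.75), of 13 PP2A subunits 1 was called lower, PPP2R2B (−0.99), and of 12 ERK genes 0 were called by edgeR, with 4 at an unadjusted p under 0.05. On 3 Day, 4 of 12 ERK genes were called higher, the feedback inhibitors SPRY4 (0.88), SPRY2 (0.71), SPRY1 (0.44) and SPRED3 (0.38), beside 2 of 8 p53 targets.

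Across the 14 treated conditions, the pattern of each member, as the log2 ratio of its mean TPM to that of its vehicle, was ranked against 19177 genes by Pearson r. These values are descriptions, since conditions share controls and libraries. IER2 was most like EGR2 (r = 0.954), FOS (0.919) and EGR1 (0.913), which kept these ranks when quinpirole replicate 1 and 1 mM Acute 24 h replicate 1 were removed, an alternative chosen after seeing the data. With 0.1 instead of 1 added to the mean TPM before the log, EGR2, FOS and EGR1 stood at ranks 6, 2 and 3. The genes named below for the other members stood at ranks 1 to 5 in that setting. IER3 was most like CCN1 (0.893), the keratin gene KRT18 (0.886) and the adaptor gene GRB14 (0.884), at ranks 1, 3 and 10 without those libraries. IER5 was most like ZNF593 (0.922), LENG1 (0.907) and the zinc transporter SLC30A1 (0.906), at ranks 6, 59 and 2 without them. IER5L was most like the receptor gene MCHR1 (0.830), the transcription factor gene SOX8 (0.829) and AC018804.1 (0.816), lower values than for the other members and at ranks 4, 12 and 36 without them. Among the members, IER2 was closest to IER5 (0.757) and IER3 (0.709), and IER5L was the least like the rest (0.431 with IER2, 0.378 with IER3 and 0.255 with IER5). Without those libraries its values were 0.394, 0.300 and 0.0629 in the same order.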

How the data were processed

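RNA-seq of hMSN-like cells was analysed from 1 table per library. The authors made these tables with CLC Genomics Workbench 21.0.5 on hg38 with Ensembl release 102 (tool and build per the submitters' processing notes). The deposited tables hold counts of exon, intron and unique reads for each gene and TPM, the latter normalised by the authors for gene length and library size. The members and gene lists were chosen with earlier results of these data known.

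For tests, edgeR 4.0.16 (R 4.3.3) fitted quasi-likelihood models to total exon reads, with filterByExpr (minimum count 10, minimum total 15), TMM scaling, all groups of an experiment in 1 fit, and Benjamini-Hochberg adjustment over all genes tested. A gene was called at an adjusted p under 0.05. On simulated counts for 1 mM Acute 1 h against PBS, 183 of 200 changed genes were found with 4 false calls among 17528 genes. The simulation changed well-expressed genes only and held no library that stands apart, so it does not bound missed or false calls in these fits. DESeq2 1.42.0 was run as an alternative. TPM values are printed as deposited. Similarity used log2(TPM + 1) of genes with a condition mean of at least 5 TPM. Genes named were the members, genes overlapping them, the 3 most similar genes of each, and up to 4 called genes of each list with the largest change. EGR1, HSPA1B and ATF3 in 1 mM Acute 24 h, and ACTB, were chosen after their values were seen. Promoter windows were read from RefSeq (GRCh38.p14), with 3 of 4 members matched. Tables were handled in Python 3.11.15 with pandas 2.3.3, numpy 2.4.6 and scipy 1.17.1, and plots drawn with matplotlib 3.10.9. No pair of libraries held identical reads. The labels do not say that replicates are separate differentiations, so p-values measure the spread between these libraries, which may be technical. Depth was 5755919 to 27702963 exon reads in 52 libraries and 137051 in quinpirole replicate 1. Libraries of the adenosine receptor agonist CGS21680 and replicate 1 of 5 Day were not analysed here.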

Additional observations from a re-analysis of the deposited data

Results flagged for a closer look

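IER3 changed differently with the 2 doses of dopamine 1 h after a single exposure, and the difference itself was tested in 1 fit of both experiments. At 1 mM it rose by 1.63 on the log2 scale against its PBS libraries, while at 1 µM its log2 fold change was −0.25 and not called. The difference was 1.89 (SE 0.35, edgeR, adjusted p = 0.00317). Each dose had its own PBS libraries, in which IER3 stood at 83.9 to 176 TPM (1 mM) and 57.7 to 63.9 TPM (1 µM), so dose and experiment cannot be told apart.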

How the results depend on the processing

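Of the counts of members called under the alternatives, 284 stayed within 1.5 times the value reported and 79 moved; none of the single-gene calls turned its direction, while 64 gained and 71 lost the threshold and 1221 kept their side. With total gene reads in place of exon reads, the members called were 4 in 1 mM Acute 24 h against PBS, 1 in 1 mM Chronic 1 h against PBS, 2 in 1 mM Chronic 1 h against Acute 1 h, 2 in the dose difference of Acute 1 h, and 0 in 1 µM Acute 1 h against PBS, 1 µM Acute 24 h against Acute 1 h, 5 Day against AA vehicle and 5 Day against 3 Day, where 43.8%, 0.992%, 40.1%, 27.9%, 5.83%, 0.484%, 1.02% and 0.0461% of genes were called. With DESeq2's Wald test they were 3 in 1 mM Acute 24 h against PBS, 1 in 1 mM Acute 24 h against Acute 1 h, 3 in 1 mM Chronic 24 h against Chronic 1 h and 2 in 1 µM Acute 24 h against Acute 1 h, where 22.9%, 13.9%, 1.38% and 2.94% of genes were called. Without the filter on low counts they were 3, 1, 1 and 2 in the same order, and 0 in 1 µM Chronic 1 h against PBS, where 7.08%, 1.73%, 0.218%, 0.311% and 1.01% of genes were called. With unique exon reads, chosen after seeing the data, 1 was called in 1 mM Acute 24 h against PBS, where 16.7% of genes were. With only the groups compared, they were 3 in 1 mM Chronic 1 h against Acute 1 h, 4 in 1 mM Chronic 24 h against Chronic 1 h, 2 in SKF82958 against Water, and 0 in 1 µM Acute 1 h and Chronic 1 h against PBS, 1 µM Chronic 1 h and Acute 24 h against Acute 1 h, and 5 Day against 3 Day, where 44.0%, 1.84%, 0.939%, 0.339%, 0.221%, 0%, 0.165% and 0.0560% of genes were called. The study set fold and TPM limits (absolute log2 fold change of 1, mean TPM of 1) for its acute and chronic dopamine data. With these limits they were 1 in 1 mM Chronic 1 h and 0 in 1 µM Chronic 1 h, where 0.820% and 1.11% of genes passed. For the time course the study used the adjusted p alone. With the same limits placed on the time course, they were 2 on 2 Day, 1 on 4 Day and 0 on 5 Day. There 0.495%, 0.507% and 0.286% of genes passed. Without the 1 µM replicate 2 libraries together they were 2 in Acute 1 h, 2 in Acute 24 h and 4 in Chronic 1 h against PBS, 4 in Acute 24 h against Acute 1 h and 3 in Chronic 24 h against Chronic 1 h, where 11.3%, 11.4%, 7.20%, 4.87% and 7.66% of genes were called. DESeq2's size factors in edgeR moved no count. Total gene reads shifted the median log2 fold change of all genes by 0.11 in 1 µM Chronic 1 h against PBS. The cause was not tested for these shifts.

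Leaving out 1 library at a time, the members called, and in brackets the share of all genes called, ranged from 0 to 4 in 1 mM Acute 24 h against PBS (2.70% to 25.7%), 0 to 2 in 1 mM Chronic 1 h against PBS (0.319% to 18.4%) and against Acute 1 h (4.49% to 34.0%), 0 to 2 in 1 mM Chronic 24 h against PBS (0.00549% to 8.48%), 0 to 3 in 1 mM Acute 24 h against Acute 1 h (0.433% to 18.8%), and 0 to 4 in 1 mM Chronic 24 h against Chronic 1 h (0.0990% to 4.89%). They ranged from 0 to 2 in 1 µM Acute 1 h against PBS (3.09% to 6.52%) and 1 µM Acute 24 h against Acute 1 h (0.217% to 0.860%), and from 0 to 1 in 1 µM Chronic 1 h against PBS (0.859% to 1.60%) and against Acute 1 h (0.274% to 1.17%), in 1 µM Chronic 24 h against Chronic 1 h (0.567% to 1.27%) and in 5 Day against 3 Day (0.0119% to 4.11%). They ranged from 2 to 4 on 2 Day (0.729% to 3.06%) and 4 Day (1.29% to 2.33%), and from 0 to 2 in SKF82958 (0% to 0.624%) and quinpirole (0% to 0.184%) against Water.

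Replicate numbers were shared between groups, but not every pair of libraries with the same number deviated together (mean correlations of −0.05 to 0.05 in the 4 experiments, single pairs from −0.67 to 0.79), and 8 of 15, 8 of 15, 1 of 14 and 1 of 9 libraries correlated best with their own number. The numbers were therefore not taken as pairs, although replicate 2 of 1 µM PBS, Acute 1 h and Chronic 1 h all stood apart from their groups. A replicate block moved no count of members called beyond 1.5 times; IER5 on 4 Day (0.30, adjusted p = 0.0513) and IER3 on 5 Day (0.86, adjusted p = 0.0703) lost their calls under it. Quinpirole replicate 1 held 3 exon reads of IER2, so the levels with quinpirole rest on the other 2 libraries.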

Other observations

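IER2 and IER3 were not the only early genes with high vehicle levels in the agonist experiment. FOS, an immediate early transcription factor gene, stood at 204 to 280 TPM and EGR1 at 554 to 637 TPM in the 3 Water libraries, against 12.6 to 19.1 TPM and 13.9 to 19.2 TPM in 1 mM PBS. The experiments were not tested against each other and have different vehicles.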
